A study of Caenorhabditis elegans with 2 samples.

Results

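The genes described here are the translation factors and aminoacyl-tRNA synthetases of Caenorhabditis elegans, chosen by gene name as protein-coding genes named eif-, ife-, ifg- or eef- and those of the form ars-1 or ars-2 preceded by 1 amino acid letter. The rule found 68 of 19973 nuclear protein-coding genes, of which 31 were named as initiation factors, 6 as elongation factors and 31 as tRNA synthetases. They were examined in a chromatin immunoprecipitation sequencing (ChIP-seq) study of EGRH-3, named as a zinc finger factor of the early growth response (EGR) type. The worms were of strain RW12196, in which the allele st12196 places TY1, EGFP and 3xFLAG tags on egrh-3 at its own place on chromosome IV, and an antibody against GFP was used. Whole young adults, 65 h old and grown from larvae synchronised by bleaching and starvation, formed 1 group of 2 biological replicates. No other genotype, age or treatment was present, so the data hold positions and no contrast between conditions. Untagged worms were not analysed here, and tagged protein at a summit cannot be told apart from background enrichment.

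Protein synthesis starts when initiation factors bring the small ribosomal subunit, the initiator tRNA and the messenger RNA together. The elongation factors then deliver each aminoacyl-tRNA and move the ribosome along the message, and the synthetases charge each tRNA with its amino acid. In young adult hermaphrodites the germline and the making of yolk and oocytes place a high demand on this machinery.

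Some choices hold for all values below. A gene was counted when the summit of a peak, its highest point, lay between 1000 bp upstream of an annotated 5' end and the gene end. The conservative list, which rests on both replicates and holds 2194 nuclear peaks, was the main list, and the other thresholded lists were a larger list of 3254 nuclear peaks and the lists of replicate 1 (2850) and replicate 2 (1439). Each peak carries a signal, the strength against a control as deposited by the authors, with no stated scaling. No read counts came with the peaks, so the depth behind each replicate is unknown. Peaks were also ranked by an irreproducible discovery rate (IDR), an estimate of how many peaks of that rank or better fail to repeat, and in the conservative list it stayed under 0.01. Coordinates are on ce11, the assembly also named WBcel235.

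The stretches around 7 of the 12 conservative summits of these genes are shown first. They include 4 elongation factor summits and the highest signal of each other class. The choice did not follow signal throughout, since eef-2 (103) and fars-1 (144) had higher signals than eef-1G (89.3) and nars-2 (129). The other 5 summits (eef-2, eif-3.E, eif-3.I, eif-4A3 and fars-1) are given by position only. Each is read from the RefSeq copy of WBcel235, 5' to 3' on the strand of the named gene, and centred on the summit, with the ears-2 stretch ended at the annotated 5' end. The capitals in the eef-1A.1 stretch mark the longest run of bases that the windows of any pair of the family's summits shared, on either strand within 50 bp, and the other stretches carry no mark.
eef-1A.1 (chrIII:6972081-6972141, minus strand): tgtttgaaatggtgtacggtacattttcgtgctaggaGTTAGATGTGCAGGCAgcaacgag
eef-1A.2 (chrX:7823297-7823357, plus strand): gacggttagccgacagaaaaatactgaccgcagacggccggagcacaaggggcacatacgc
eef-1B.2 (chrIV:15038966-15039026, plus strand): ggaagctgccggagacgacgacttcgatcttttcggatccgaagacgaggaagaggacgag
eef-1G (chrV:10966992-10967052, plus strand): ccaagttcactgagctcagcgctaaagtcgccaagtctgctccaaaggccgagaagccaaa
ears-2 (chrIV:390469-390528, minus strand): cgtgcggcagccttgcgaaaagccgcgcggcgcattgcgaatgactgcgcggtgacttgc
eif-2Bgamma (chrII:6968496-6968556, minus strand): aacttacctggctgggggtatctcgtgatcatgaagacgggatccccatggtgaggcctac
nars-2 (chrIII:11496681-11496741, minus strand): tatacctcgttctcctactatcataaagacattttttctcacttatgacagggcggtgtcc

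Summits stood at most of the elongation factor genes and at a minority of the initiation factor and synthetase genes. In the conservative list, 5 of 6 elongation factors, 4 of 31 initiation factors and 3 of 31 tRNA synthetases held a summit. That made 12 of 68 genes (17.6%), against 8.12% of all nuclear protein-coding genes under the same rule. The share was 9.68% for the synthetases, 12.9% for the initiation factors and 83.3% for the elongation factors, the last on 6 genes. At an IDR under 0.001, 6 of the 68 genes remained, 3 of them elongation factors, against a background of 3.84%. With only the peaks above the median signal the count was also 6, against 4.37%. The differences between the classes were not tested. Ribosomal protein genes named rpl- or rps-, which act in the same process, held a summit in 25 of 78 cases (32.1%).

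The other lists placed the classes in the same order, except that synthetases passed initiation factors in replicate 2. The larger list reached 5 elongation factors, 8 initiation factors and 6 synthetases, 19 of 68 in all, against a background of 11.5%. Replicate 1 alone reached 4, 6 and 4 in that order, 14 in all, against 9.82%. Replicate 2 alone reached 4, 2 and 3, 9 in all, against 5.7%. All 4 lists held a summit at 7 of the 68 genes (10.3%, background 4.44%), namely eef-1A.1, eef-1A.2, eef-1B.2, eif-2Bgamma, ears-2, fars-1 and nars-2. At least 1 list held a summit at 22 genes (32.4%, background 12.9%), and these included each of the 6 elongation factors.

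**Figure D1:**
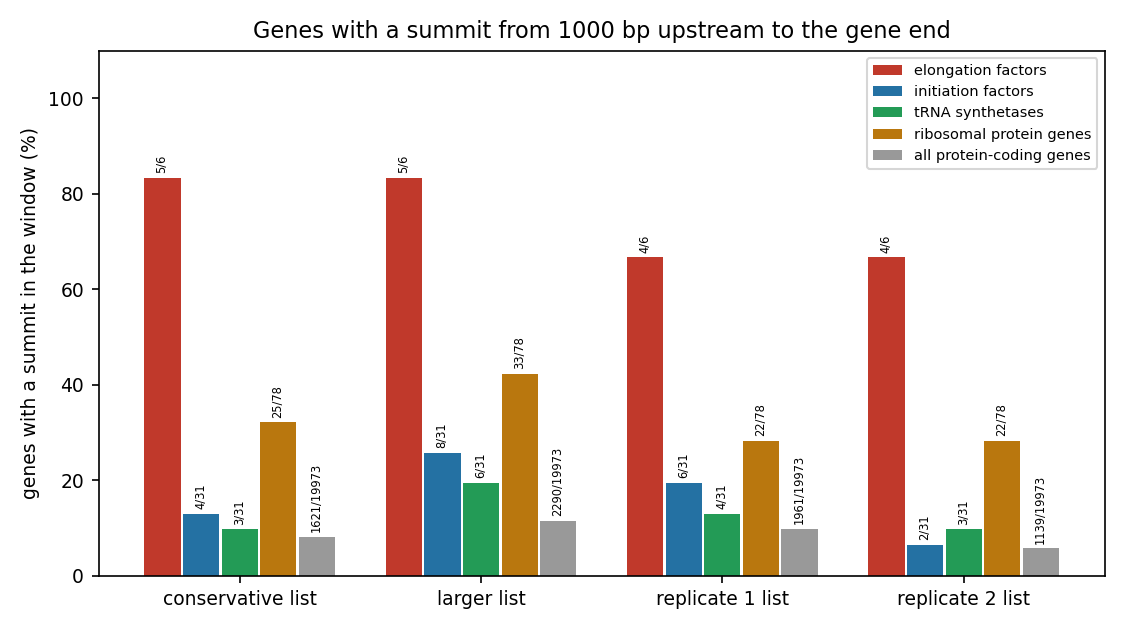
Percent of genes (vertical axis) with a summit from 1000 bp upstream to the gene end in each of the 4 thresholded lists (horizontal axis), by class, with the count over the number of genes above each bar. The elongation factor bars stand at 83.3% or 66.7%, and the grey bars of all protein-coding genes between 5.7% and 11.5%.

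Longer genes offer more room for a summit, and the classes differed in length. The median window was 3160 bp for elongation factors, 3219 bp for initiation factors, 4605 bp for synthetases and 3027 bp for all protein-coding genes. With all genes ordered by window length and split into 3 equal bands, a conservative summit was found in 6.52% of the shortest, 4.99% of the middle and 12.8% of the longest windows. Of the 68 genes, 9, 31 and 28 fell in those bands, and 0, 8 and 4 of them held a summit. The middle band held 4 elongation factors, each with a summit, and the longest held 20 synthetases, of which 1 (nars-2) had one. When the window was cut to the promoter, from 1000 bp upstream to 200 bp downstream of any annotated transcript 5' end, 3 elongation factors, 4 initiation factors and 1 synthetase held a summit, against a background of 4.86%.

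The 12 summits lay in different parts of their genes. Of the 12, 6 were upstream of the gene (50%, against 40.3% of 2049 pairs of a gene and a summit over all genes), 3 in coding exons (25% against 31.3%), 2 in introns (16.7% against 25.1%) and 1 in a 5' UTR (8.33% against 2.44%). Within 500 bp of the outermost 5' end lay 6 of the 12 (50%, against 35.8%). For 7 of the 12, the summit also lay in the promoter window of a neighbouring gene (58.3%, against 25.9% over all genes), so the summit cannot be given to 1 gene alone.

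**Figure D2:**
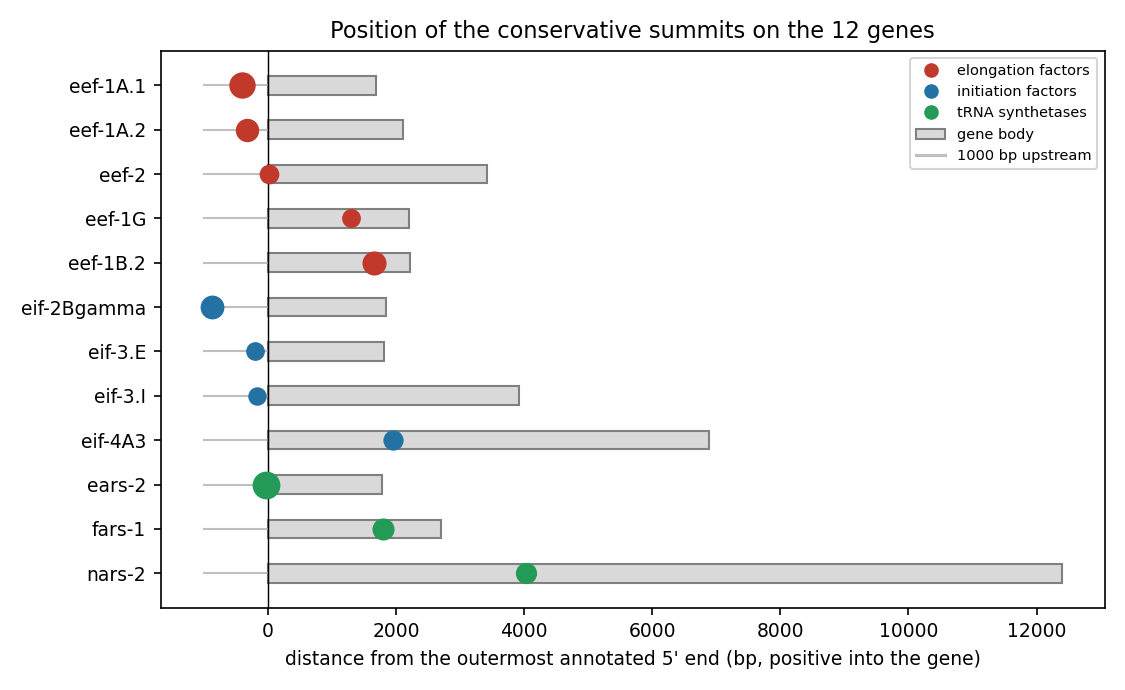
Positions of the 12 conservative summits along their genes, with the horizontal axis in bp from the outermost annotated 5' end and each gene body drawn to scale as a bar. Larger points have a higher signal. The summits of eef-1A.1, eef-1A.2, eef-2, eif-3.E, eif-3.I and ears-2 lie within 500 bp of the 5' end, and those of eef-1G, eef-1B.2, eif-4A3, fars-1 and nars-2 lie inside the gene.

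Among the elongation factors, both genes for eEF1A, the GTPase that delivers aminoacyl-tRNA to the ribosome, had an upstream summit. That of eef-1A.1 (WBGene00001168, chromosome III, 6970026 to 6971712, minus strand) was intergenic at 6972111, 399 bp upstream. With a signal of 232 it stood at rank 532 of the conservative peaks on nuclear chromosomes. Replicate 1 gave 105 and replicate 2 gave 124, and the same base lay in the promoter window of the neighbour rfc-4, which encodes a subunit of the replication clamp loader. In the list of replicate 1 the eef-1A.1 summit was at 6972074, inside the miRNA gene cel-mir-5549. That of eef-1A.2 (WBGene00001169, chromosome X, 7823654 to 7825769, plus strand) stood at 7823327, 327 bp upstream, in no other gene's window, and its signal of 169 ranked 842. Replicate 1 gave 94.4 and replicate 2 gave 73.7. Although the coding sequences of these paralogues are closely similar, none of the 166 36-mers within 100 bp of either summit recurred in the nuclear genome.

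The gene eef-2 (WBGene00001167, chromosome I, 9163531 to 9166952, plus strand) encodes eEF2, the GTPase that moves the ribosome along the message. Its summit was at 9163551 in the annotated 5' UTR, 20 bp inside the gene, with a signal of 103, and it was shared with the promoter window of clsp-1. Replicate 1 gave 42.1 and replicate 2 gave 66.7, and the thresholded list of replicate 1 held no peak there. Replicate 2 was the higher of the pair at eef-2 and at eef-1A.1, and the lower at the other elongation factor summits. Over all conservative summits the median ratio of replicate 1 to replicate 2 was 1.64, and each conservative elongation factor summit lay under it.

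The remaining elongation factor genes encode subunits of eEF1B, which recharges eEF1A with GTP, and their summits lay in coding exons. That of eef-1B.2 (WBGene00012768, chromosome IV, 15037331 to 15039551, plus strand) was at 15038996, 1665 bp into the gene, with a signal of 183, and it fell in the promoter window of the downstream gene hrpu-1. The replicates gave 96 and 89.6 there, and each had a peak in its own list. That of eef-1G (WBGene00008920, chromosome V, 10965719 to 10967922, plus strand) was at 10967022, 1303 bp into the gene, with a signal of 89.3. It was the only one of the 12 peaks absent from the larger list, and it overlapped no peak of either replicate's own list. The ranked lists gave 47.4 in replicate 1 and 44.6 in replicate 2. Of the 12 peaks, 91.7% were in the larger list and 16.7% overlapped a peak of neither replicate, against 93.6% and 8.89% of all conservative peaks. Replicate 1 peaks were overlapped by 66.7% of the 12 (84% of all), and replicate 2 peaks by 75% (59.1% of all). The sixth gene, eef-1B.1 (WBGene00018846, chromosome III, 7972382 to 7973386, minus strand), had no conservative summit. The larger list placed a summit at 7972883, 503 bp into its coding sequence, with a signal of 80.9, and replicate 1 one at 7972861 with 71.3. Those positions were also in the promoter windows of aco-2 and F54H12.5.

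Among the initiation factors, the highest signal was that assigned to eif-2Bgamma (WBGene00004090, chromosome II, 6965800 to 6967648, minus strand), a subunit of the exchange factor that reloads eIF2 with GTP. The summit at 6968526 was 878 bp upstream of it and had a signal of 178, with 84.5 in replicate 1 and 96.2 in replicate 2. The same base lay inside the snRNA gene sup-39 and inside the protein-coding gene C15F1.5. Of the 36-mers within 100 bp, 55 of 166 (33.1%) recurred in the nuclear genome, so reads there could also come from a copy elsewhere. At the other 11 summits none recurred.

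Both eIF3 genes with a conservative summit had it just upstream. eIF3 is the large complex that binds the small ribosomal subunit. The summit of eif-3.E (WBGene00001228, chromosome I, 10640465 to 10642281, minus strand) was at 10642477, 196 bp upstream, with a signal of 87.6 and with 48.3 in replicate 1 and 40.9 in replicate 2. It overlapped no peak in either replicate's own thresholded list and was shared with B0511.17. The summit of eif-3.I (WBGene00001232, chromosome I, 2485861 to 2489787, plus strand) was at 2485687, 174 bp upstream, with a signal of 83.5 and an IDR of 0.00915, close to the limit of the list. The replicates gave 35.9 and 54, the thresholded list of replicate 1 held no peak there, and abtm-1, which encodes a mitochondrial ABC transporter, shared the summit.

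The gene eif-4A3 (WBGene00022029, chromosome I, 629465 to 636345, minus strand) bears an initiation factor name, but in mammals its product is known as the helicase of the exon junction complex. Its summit at 634391 lay in a coding exon 1954 bp into the gene, in the promoter window of an internal annotated 5' end, with a signal of 112. Replicate 1 gave 74.4 and replicate 2 gave 36.1, a ratio of 2.06, the highest of the 12. The thresholded list of replicate 2 held no peak there.

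Of the synthetases, ears-2 (WBGene00001338, chromosome IV, 388686 to 390468, minus strand), a glutamyl-tRNA synthetase gene, had the highest signal among the 12 genes. Its summit at 390498 was 30 bp upstream, its signal of 264 ranked 437 with an IDR of 8.83e-05, and the divergent neighbour uncp-18 shared it. Replicate 1 gave 124 and replicate 2 gave 138. The summits of the other synthetases lay in introns. That of fars-1 (WBGene00001497, chromosome I, 6211981 to 6214685, minus strand), for a phenylalanyl-tRNA synthetase subunit, was at 6212889, 1796 bp into the gene, with a signal of 144 and with 67.5 and 76.5 in the replicates. The same base lay in an annotated pseudogene and in the ncRNA gene T08B2.14. That of nars-2 (WBGene00013447, chromosome III, 11488353 to 11500747, minus strand), an asparaginyl-tRNA synthetase gene, was at 11496711, 4036 bp into the gene, with a signal of 129 and with 72.5 and 58.6 in the replicates. It also lay in the promoter window of Y66D12A.24.

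The 12 summits were of middling strength, and neither replicate was the higher one throughout. Their signals ran from 83.5 to 264 with a median of 136, against a median of 140 over all nuclear conservative peaks, whose highest signal was 5852. None ranked above 437. Replicate 1 exceeded replicate 2 at 6 of the 12 summits and fell below it at 6 (50%), whereas it fell below at 20.6% of the 2070 conservative summits with a signal in both. The median ratio of replicate 1 to replicate 2 was 0.98 for the 12 and 1.64 for all, and 11 of the 12 had a ratio under 1.64. The ratio was 1.13 at the median of 27 summits of ribosomal protein genes. With 2 replicates the pair of values is the only measure of spread, and these differences were not tested.

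**Figure D3:**
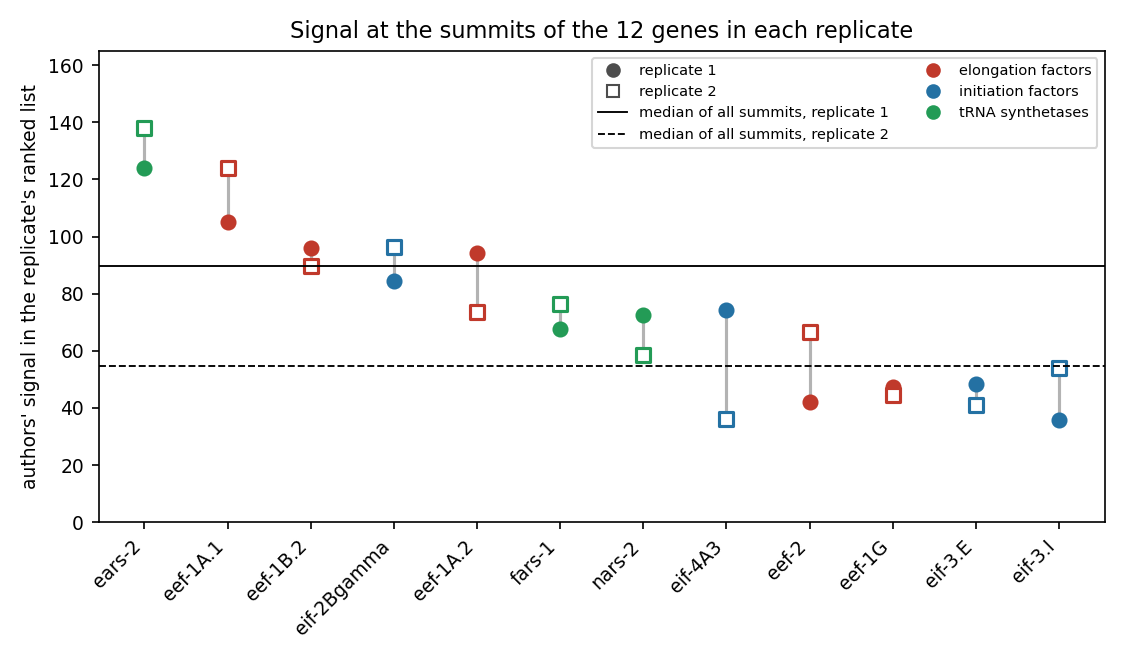
Signal of each of the 12 summits in replicate 1 (filled circles) and replicate 2 (open squares), read from each replicate's ranked list, with genes ordered by their signal in the conservative list. The horizontal lines are the medians over all conservative summits, 89.8 in replicate 1 (solid) and 54.7 in replicate 2 (dashed). Of the 12 genes, 8 have their circle under the solid line and 8 have their square above the dashed line.

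These summits were also poorer in G and C at the median. Their GC content, over 50 bp to either side, ran from 40.6% (eif-3.I) to 59.4% (eef-1A.2) with a median of 52.5%, against 57.4% over all conservative summits and 54% at ribosomal protein genes. Among the 1124 conservative summits within that range of GC content and with both signals, the median ratio was 1.24. The part of base composition in the ratio of the 12 was not tested.

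**Figure D4:**
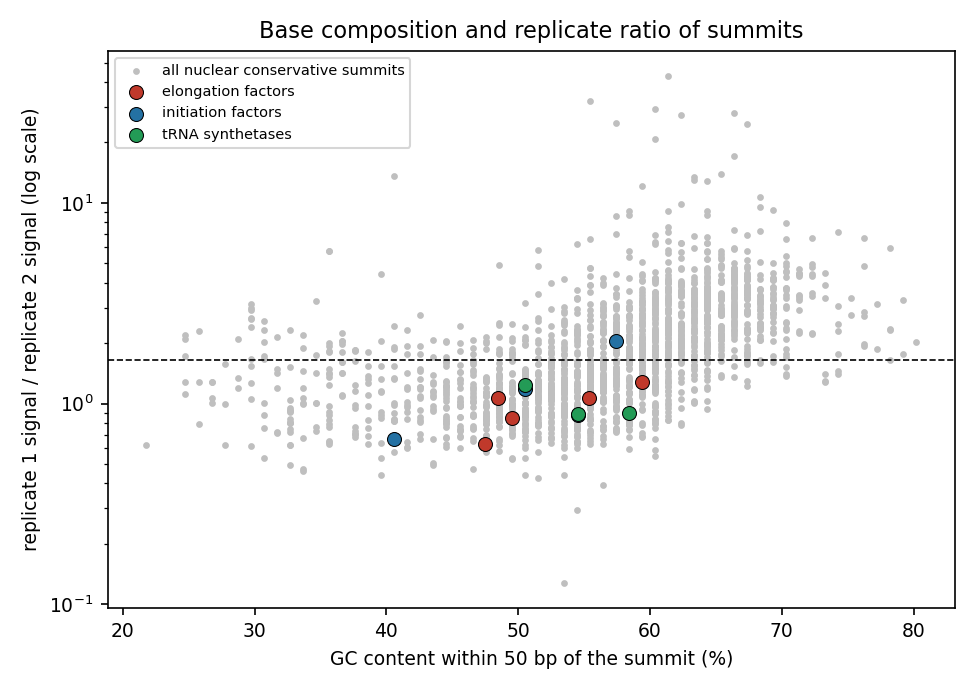
Ratio of the replicate 1 to the replicate 2 signal (vertical axis, log scale) against GC content within 50 bp (horizontal axis, percent) for all conservative summits with both signals (grey) and for the 12 summits by class (colour). The dashed line is the median of all, 1.64, and the 12 coloured points lie between 40.6% and 59.4% GC, with only eif-4A3, at 2.06, above the line.

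The sequence patterns GTGGGCG and GTGGGTG, of the kind that mammalian EGR zinc fingers bind, were looked for on either strand up to 50 bp from each summit. None of the 12 summits held either, against 71 of 2194 conservative summits (3.24%), and on 12 summits a share of 0 has an exact (Clopper-Pearson) 95% interval that reaches 26.5%, counting error only. The looser GTGGGNG, which includes both patterns, was found at fars-1 and nars-2, 2 of 12 (16.7%), against 8.02% of all. Within 100 bp the shares were 16.7% and 14.1%, and in the larger list, within 50 bp, 10.5% and 8.17%.

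The shared run in capitals occurred at the eef-1A.1 summit and at 1 other of the 12, and at no other conservative summit (2 of 2194, 0.0912%). It was found by searching these sequences, so its count is a description.

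A further 10 genes had a summit in another list and none in the conservative one. Over all 19973 protein-coding genes, at least 1 list held a summit at 2586 and the conservative list at 1621, against 22 and 12 of the 68. The initiation factors among the 10 were genes for subunits of eIF2 and eIF3 and eif-6. In the larger list the summits were 560 bp upstream of eif-2alpha (signal 91.1), inside the neighbour phb-1, 142 bp upstream of eif-2beta (70.4), 236 bp upstream of eif-3.C (76.9) and 130 bp into eif-3.J (96.4). The list of replicate 1 alone held one in a coding exon of eif-3.B (51.6) and a pair upstream of eif-6, inside pbs-2 (43 and 12). Among synthetases, the larger list placed a summit in a coding exon of qars-1 (91.6), for glutaminyl-tRNA synthetase, 113 bp upstream of tars-1 and inside kel-1 (70.1), for threonyl-tRNA synthetase, and 863 bp upstream of pars-1 (68.9), for prolyl-tRNA synthetase. Among these 10 genes, replicate 1 alone gave a summit at eif-2alpha, eif-3.J, eif-3.B, eif-6, qars-1 and eef-1B.1, and replicate 2 alone gave none. Replicate 2 also had fewer nuclear peaks, 1439 against 2850. The same split was not taken over all genes without a conservative summit, so it cannot be read as a trait of these 10.

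The other 46 genes had no summit in any thresholded list, and 12.9% of all protein-coding genes had one in at least 1 list. Without a threshold, the ranked list that pairs the replicates held a region at 54 of the 68 genes (79.4%), against 46.1% of all protein-coding genes and 74 of 78 ribosomal protein genes. Among genes without a conservative summit, the strongest region of cars-1 came nearest to the limit of 0.01, with an IDR of 0.0136 and a signal of 77.1. Next were those of pars-1 with 0.0157, eif-2beta with 0.0268 and yars-2 with 0.0303. Of these genes, pars-1 and eif-2beta had a summit in the larger list and are not among the 46. No ranked region was found at 9 initiation factors (eif-1.A, eif-2Balpha, eif-2Bepsilon, eif-3.G, eif-3.H, eif-3.K, eif-3.L, ife-2 and ife-4) and at 5 synthetases (dars-2, lars-2, nars-1, rars-2 and sars-2). The cap-binding proteins of the eIF4E family (ife-1 to ife-5) and the scaffold ifg-1, which bring the capped message to the ribosome, had no thresholded summit. Their strongest ranked region had a signal of 43, at ifg-1.

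Other genes of translation and its control, whose names the rule does not match, were looked up from a list of 38 names, of which 33 were found. These 33 include long genes such as gcn-1 (chromosome III, 2151945 to 2197908). Over all protein-coding genes, a conservative summit was found in 12.8% of the longest window band, against 8.12% without regard to length. No share by window length was taken for the 33, so neither value is a matched background. Of the 33, 9 held a conservative summit. They were iffb-1 (eIF5B, which joins the ribosomal subunits), with coding exon summits of signal 152 and 137, the poly(A)-binding proteins pab-1 (126, coding exon) and pab-2 (127, 85 bp upstream), and ifet-1 (80.9, coding exon), whose product binds eIF4E. The others were gcn-1 (137, intron), named after the yeast activator of the kinase GCN2, larp-1 (142 upstream and 111 in an intron), for a La-related RNA-binding protein, and abcf-2 (292, inside the neighbour ant-1.1). In dph-2, whose yeast counterpart acts in the diphthamide modification of eEF2, the summits lay inside the collagen genes col-80 (375) and col-79 (153), and in ncl-1, known for limiting nucleolar size, inside ZK112.4 (137). The genes for eIF4A (inf-1), eIF5A (iff-1 and iff-2), the release factors (erfa-1 and erfa-3), the eEF2 kinase (efk-1) and the mitochondrial elongation factors (tufm-1, tufm-2, tsfm-1 and gfm-1) held none in any thresholded list.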

How the data were processed

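The files were peak lists on ce11, per the file headers, for 1 group of 2 replicates. The authors deposited, for each peak, a signal (its strength against control), a whole-number score that follows the IDR and, in ranked lists, the −log10 of the global IDR. Neither the aligner nor the peak caller is given in the sources used here. The authors deposited thresholded lists per replicate and for both together; whether reads were pooled is not stated. The ranked list used for IDR values holds every conservative peak, and 72.8% and 70.6% of its paired intervals stand unchanged in the ranked lists of replicates 1 and 2.

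Genes came from the Ensembl release 115 annotation of WBcel235, the same assembly. Summits were assigned to windows, replicate signals were the strongest ranked region covering the summit, and overlaps needed 1 bp. Summit assignment was tested on simulated data. The members and lists were chosen with earlier results of these data known. The genes named in full are those with a conservative summit, then those in other lists, and the shared run was searched for after the sequences were seen. No test was run, since 1 group holds no contrast and genes are not replicates. The alternatives were other lists, a stricter IDR, higher signals, other windows, midpoints, intervals and nearest genes. Python 3.11.15, numpy 2.4.6, pandas 2.3.3, scipy 1.17.1 and matplotlib 3.10.9 were used.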

Additional observations from a re-analysis of the deposited data

How the results depend on the processing

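The count of 12 genes became 19 in the larger list, 6 at an IDR under 0.001 and 6 among peaks above the median signal, with backgrounds of 11.5%, 3.84% and 4.37%. At the same settings the initiation factors went from 4 to 8, 1 and 1. The elongation factors went from 5 to 3 at the stricter IDR, 3 above the median signal and 3 in promoter windows only. The synthetases went from 3 to 6 in the larger list and 1 in promoter windows only. With 1 replicate left out, the counts ran from 9 to 14 for all genes, 2 to 6 for initiation factors, 4 for elongation factors either way, and 3 to 4 for synthetases. The low value for initiation factors is that of replicate 2 alone. Windows of 500 or 2000 bp upstream, midpoints, whole intervals and the nearest gene alone kept each count within 1.5 times, and using the outermost 5' end only gives the same windows. The cause of these shifts was not tested. The share with GTGGGCG or GTGGGTG was 0 within 100 bp and in the larger list. No paired analysis was possible because the series holds 1 group. Depth is unknown, so a gene without a summit is one where none was detectable in these lists.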

Other observations

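The run GTTAGATGTGCAGGCA, which stands in capitals in the eef-1A.1 stretch, is the longest that the windows of any pair of the 12 summits shared, and it was looked for after earlier results of these data were known. The nuclear genome held 4 copies, and each of the 4 lay in a promoter window of a protein-coding gene. A conservative summit stood within 100 bp of 2 of the 4 copies. Those 2 are the copies by which the run was found, so their nearness to a summit was fixed by the search. Their promoter placement was not independent of it, since 8 of the 12 genes had their summit in a promoter window. The share of the genome inside promoter windows is not given here. Counted around the outermost 5' end alone, 7 of 19973 protein-coding genes (0.035%) held a copy, because neighbouring divergent genes share some windows. These included the ribosomal protein gene rpl-11.2 and the proteasome subunit gene pbs-1, where no conservative summit lay within 100 bp of the copy. A match of letters describes the sequence and is not a binding site.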
